A study of Mus musculus with 26 samples.

Results

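Mouse pre-B cells kept with the chemokine CXCL12 and ERK inhibitor II, and without interleukin 7 (IL-7), were compared with pre-B cells kept with IL-7 and CXCL12. Members were chosen by the media on the labels, and they comprised 4 of the 18 RNA-seq libraries among the 26 samples of the series, 2 libraries per medium. They are called the inhibitor libraries and the IL-7 plus CXCL12 libraries below, in short with the inhibitor and with IL-7. CXCL12 was in both media, and the 2 media differed in 2 components at once: IL-7 was absent and the inhibitor present in the first, the reverse in the second. The part of each component therefore cannot be told apart. A second pair of media, neither with CXCL12 or inhibitor, served to set the change beside that of losing IL-7 by itself: 2 libraries with neither factor and 2 libraries with IL-7 alone. One of the libraries with neither factor was named as small pre-B cells, the other as pre-B cells.

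The series asks how CXCR4, the receptor of CXCL12, bears on light chain recombination and late B cell development. Per the labels' protocols, flow-sorted B cells were the source of the RNA. Genotype, strain and age were not stated for these cultures, and neither the dose nor the duration nor the chemistry of the inhibitor is given in the sources used here. Nothing in the labels said that replicates were separate cultures or animals, so p-values cover no more than the spread of these particular libraries, which may be technical.

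As background, IL-7 binds its receptor on B cell precursors and, through JAK kinases, activates the transcription factor STAT5, which sustains survival and proliferation and holds back recombination of light chain genes. CXCL12 acts on CXCR4, a G protein-coupled receptor that retains B cell precursors in bone marrow and can signal through the RAS-ERK kinase cascade. ERK phosphorylates transcription factors that switch on early genes such as Egr1 and Fos, together with genes of the DUSP and Sprouty families that damp the cascade.

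Total counts were 46044096 and 49939490 in the inhibitor libraries and 46859789 and 50235192 in the IL-7 plus CXCL12 libraries, within 17257914 to 50235192 over the 18. Levels below are CPM, the counts scaled to TMM-adjusted library totals, for replicates 1 and 2, and were not corrected for gene length. The median coefficient of variation between replicates at 8 CPM or more was 2.97% for the inhibitor medium and 3.66% for IL-7 plus CXCL12. These 4 libraries stood apart from the other cultures in features their labels do not name: Gapdh was at 1399 and 1556 CPM in the inhibitor libraries and 1730.0 and 1519 CPM in the IL-7 plus CXCL12 libraries, and at 1.34 and 1.54 CPM with neither factor and 2.17 and 2.89 CPM with IL-7 alone. Rps29, a ribosomal protein gene, was at 636 and 718 CPM with the inhibitor and 871 and 743 CPM with IL-7 plus CXCL12, and at 0.325 and 0.220 CPM with neither factor and 0.593 and 0.345 CPM with IL-7 alone. Xist, the RNA that silences an X chromosome in female cells, was at 1438 and 1454 CPM with the inhibitor and 1251 and 1520.0 CPM with IL-7 plus CXCL12, and at 0.498 and 0.976 CPM with neither factor and 0.615 and 0.647 CPM with IL-7 alone. Mast cell markers summed to a mean of 361 CPM with the inhibitor, 408 CPM with IL-7 plus CXCL12, 13.3 CPM with neither factor and 15.9 CPM with IL-7 alone. Stromal markers summed to 235, 155, 1776 and 1045 CPM in those 4 media. Fold changes were therefore taken only inside each pair of media. All 16 markers of B-lineage identity were detected, with a summed level of 8690.0 and 8651 CPM with the inhibitor, against 8685 and 8244 CPM with IL-7. The B cell receptor component Cd79a was at 798 and 832 CPM in the inhibitor libraries and 915 and 853 CPM in the IL-7 plus CXCL12 libraries. Cxcr4 itself, at 309.5 and 322 CPM in the inhibitor libraries, against 288 and 266 CPM in the IL-7 plus CXCL12 libraries, did not pass the test (adjusted p = 0.929). An edgeR fit of these 4 libraries alone called it (log2 change 0.22, adjusted p = 0.00405).

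Of 14862 genes tested, 1640 (11.0%) were called in the inhibitor libraries against the IL-7 plus CXCL12 libraries by edgeR's quasi-likelihood test at a Benjamini-Hochberg adjusted p under 0.05. Of these, 966 (6.5% of the genes tested) were higher and 674 (4.54%) lower with the inhibitor. The counts of called genes in each list below stand beside these 2 shares. The rises were larger than the falls: 593 of the higher genes and 51 of the lower genes moved by at least 2-fold. The median log2 change over all genes tested was −0.01. Leaving out any 1 of the 4 libraries left 655 to 720 calls, and 498 of the 1640 genes, 313 higher and 185 lower, were called in each of those 4 fits. In bulk RNA, fewer cells of a type and less RNA per cell cannot be told apart.

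**Figure D1:**
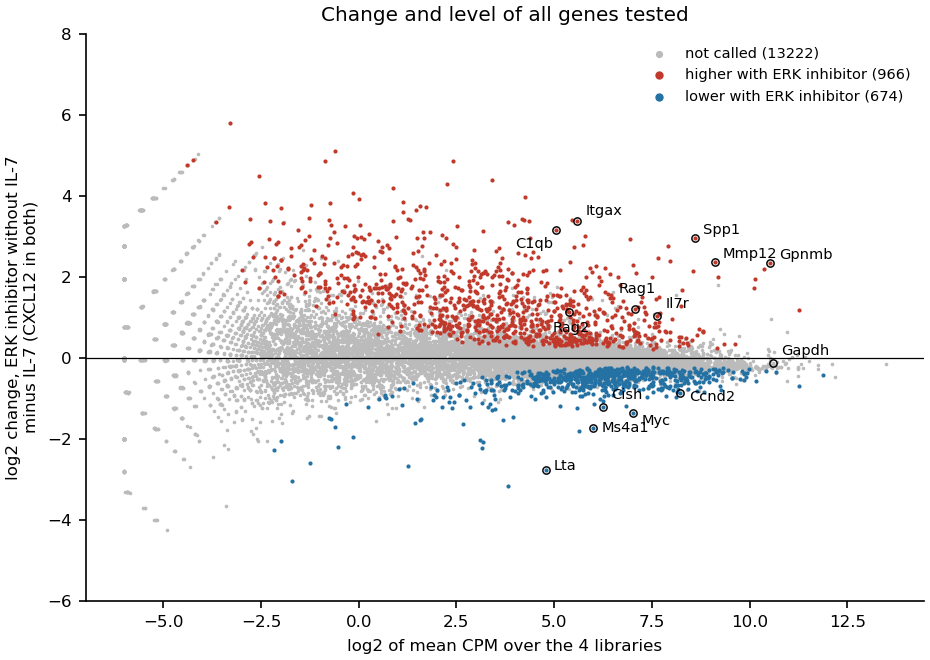
Log2 change of each of the 14862 genes tested (vertical axis, inhibitor without IL-7 minus IL-7, CXCL12 in both) against the log2 of its mean CPM over the 4 libraries (horizontal axis). Red points are the 966 genes called higher and blue points the 674 called lower with the inhibitor; Itgax, Mmp12 and other macrophage genes lie above the bulk of genes, and Lta and Ms4a1 below it.

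Known targets of STAT5 and IL-7 were lower where they were called. Of 19 tested, 11 were lower and 0 higher in the inhibitor libraries, with a median log2 change of −0.73. Cish, a STAT5-induced inhibitor of cytokine signalling, was at 43.8 and 47.3 CPM in the inhibitor libraries, against 108 and 104 CPM in the IL-7 plus CXCL12 libraries (log2 change −1.22 ± 0.10, adjusted p = 1.64e-05). Both inhibitor libraries lay below 50 CPM and both others above 100 CPM. Socs3, another feedback inhibitor of cytokine receptors, was at 18.3 and 18.8 CPM with the inhibitor, against 31.5 and 35.6 CPM with IL-7 (log2 change −0.85 ± 0.14, adjusted p = 0.0017). Its relative Socs2 was at 217 and 192 CPM with the inhibitor, against 342 and 388 CPM with IL-7 (log2 change −0.84 ± 0.15, adjusted p = 0.00358; up to 0.0541 with 1 library left out). The groups did not overlap for either gene.

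Among the growth and survival genes of this list, Myc, a transcription factor that drives cell growth, was at 73.4 and 72.4 CPM in the inhibitor libraries, against 187 and 186 CPM in the IL-7 plus CXCL12 libraries (log2 change −1.35 ± 0.08, adjusted p = 3.38e-06). Ccnd2, the cyclin that carries cytokine signals into the cell cycle, was at 211 and 216 CPM with the inhibitor, against 387 and 386 CPM with IL-7 (log2 change −0.86 ± 0.17, adjusted p = 0.00741). Bcl2, which protects from cell death, was at 22.3 and 20.5 CPM with the inhibitor, against 34.2 and 36.8 CPM with IL-7 (log2 change −0.73 ± 0.13, adjusted p = 0.00341). All 3 were lower in both inhibitor libraries than in both others, but Ccnd2 and Bcl2 lost the call when the worst 1 of the 4 libraries was left out (adjusted p up to 0.0689 for Ccnd2 and 0.0526 for Bcl2), while Myc kept it in all 4 of those fits. Il2ra, which encodes CD25 and marks small pre-B cells, fell to 17.2 and 19.0 CPM in the inhibitor libraries, against 25.7 and 25.9 CPM with IL-7 plus CXCL12 (log2 change −0.51 ± 0.10, adjusted p = 0.00592; up to 0.0801 with 1 library left out).

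Of the cytokine genes on the STAT5 and IL-7 list, Lta, Tnfsf11 and Lif were lower, and Tnf, which is not on that list, was too. Lta, which encodes lymphotoxin alpha, was at 6.55 and 7.56 CPM in the inhibitor libraries, against 51.4 and 44.6 CPM in the IL-7 plus CXCL12 libraries (log2 change −2.77 ± 0.33, adjusted p = 0.000243). Tnf, its neighbour in the genome, was at 6.26 and 7.01 CPM with the inhibitor, against 19.9 and 18.5 CPM with IL-7 (log2 change −1.53 ± 0.21, adjusted p = 0.00065). Tnfsf11, which encodes the osteoclast factor RANKL, was at 6.59 and 5.31 CPM with the inhibitor, against 13.8 and 13.9 CPM with IL-7 (log2 change −1.22 ± 0.15, adjusted p = 0.000283). These 3 genes kept their call with each library left out. Lta and Tnf were among the 12 genes with the largest falls. The other 10, among those averaging at least 3 in log2 CPM, were the imprinted noncoding RNA H19, Mc1r, Pcp4, Ssc5d, Sema7a, Ms4a1, Bhlha15, Syde2 and Nefh, with Myc again among them; Syde2 reached an adjusted p of 0.0523 with 1 library left out and Ms4a1 one of 0.0534. H19 was at 2.86 and 2.85 CPM in the inhibitor libraries, against 26.2 and 24.6 CPM in the IL-7 plus CXCL12 libraries, the largest fall of these 12 (log2 change −3.15 ± 0.12). Sema7a, a membrane-bound semaphorin, was at 22.0 and 22.1 CPM with the inhibitor, against 78.3 and 76.5 CPM with IL-7 (log2 change −1.81 ± 0.23, adjusted p = 0.000341). Bhlha15, a transcription factor of secretory cells, was at 7.69 and 8.78 CPM with the inhibitor, against 24.9 and 20.3 CPM with IL-7 (log2 change −1.46 ± 0.14, adjusted p = 7.70e-05).

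STAT proteins bind a palindrome written TTCNNNGAA, and the 250 bases upstream of the transcription start are shown for the gene of this group with the deepest fall and for the receptor gene, which moved the other way. The sequences are from RefSeq, build GRCm38.p6, with matches to TTCNNNGAA in capitals; the motif reads the same on both strands. Lta occupies chr17:35205352-35205601 on the minus strand and Il7r chr15:9529877-9530126 on the minus strand.
Lta: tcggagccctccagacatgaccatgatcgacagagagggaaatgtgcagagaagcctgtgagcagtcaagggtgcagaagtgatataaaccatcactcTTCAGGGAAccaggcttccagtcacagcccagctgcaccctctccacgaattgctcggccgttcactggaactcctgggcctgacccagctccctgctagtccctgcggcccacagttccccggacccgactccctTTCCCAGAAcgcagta
Il7r: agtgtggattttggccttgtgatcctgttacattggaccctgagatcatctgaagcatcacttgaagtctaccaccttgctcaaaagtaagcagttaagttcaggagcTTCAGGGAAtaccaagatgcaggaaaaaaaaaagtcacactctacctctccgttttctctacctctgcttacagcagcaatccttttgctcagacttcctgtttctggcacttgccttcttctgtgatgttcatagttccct
The Lta window held 2 matches, whose first bases lay 152 and 16 bases upstream of the start, and the Il7r window held 1, at 142 bases. No match was in the Cish window of the same length, which says only that these letters are not there. The motif was in 8.13% of the windows of 27025 genes, and in 2 (13.3%) of the 15 STAT5 and IL-7 targets with a window.

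The IL-7 receptor chain moved opposite to its targets. Il7r was at 275 and 259 CPM in the inhibitor libraries, against 127 and 137 CPM in the IL-7 plus CXCL12 libraries (log2 change 1.02 ± 0.11, adjusted p = 0.000161), about 2-fold higher in both inhibitor libraries, and it kept the call with each library left out. It was the sole gene called among 15 tested genes of the receptor and its JAK-STAT chain, whose median log2 change was 0.04. The phosphatase genes Ptpn6 and Ptpn2 did not pass edgeR's test (adjusted p = 0.0692 and 0.347), while DESeq2 called Ptpn6 (adjusted p = 0.00948).

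**Figure D2:**
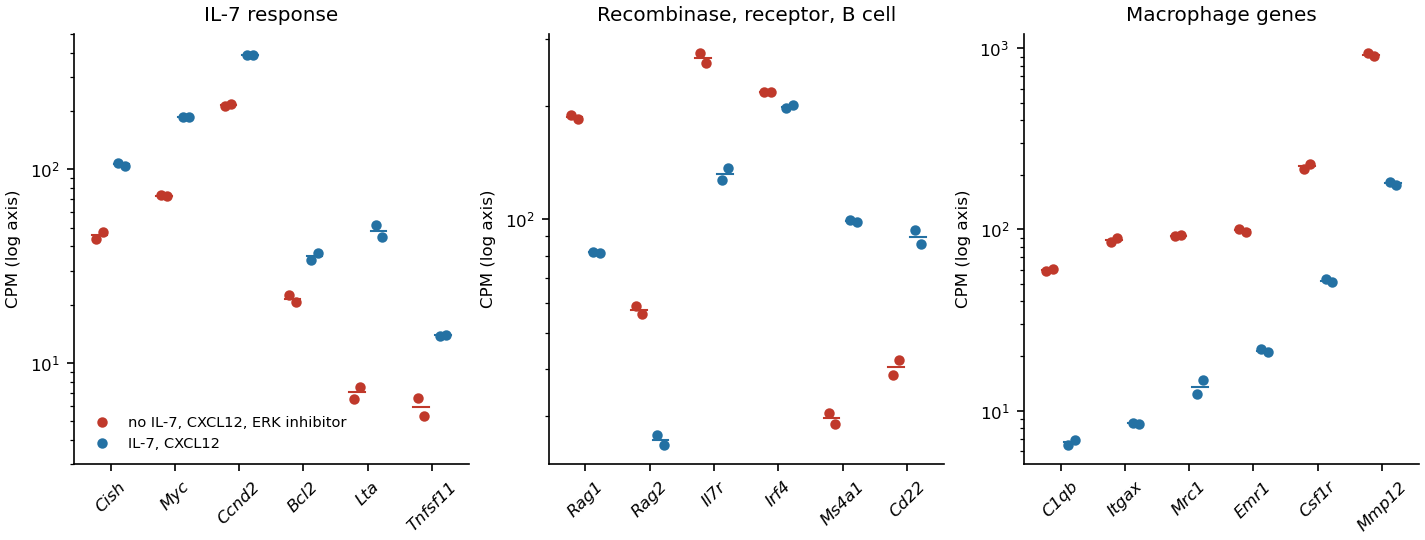
CPM per library on a log axis for genes of the IL-7 response, for recombinase, receptor and B cell genes, and for macrophage genes; each point is 1 library, horizontal marks are means of 2, and red (inhibitor without IL-7) stands left of blue (IL-7), with CXCL12 in both. Cish, Myc and Lta lie lower and Rag1, Rag2 and Il7r higher in both inhibitor libraries, and so do the 6 macrophage genes.

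Genes that ERK is known to induce were called about as often as all genes tested, of which 11.0% were. Of 25 tested early genes induced by ERK, 3 were higher and 0 lower (median log2 change 0.14), and of 20 feedback inhibitors and ETS targets 0 were higher and 2 lower (median −0.01). Dusp6, a phosphatase that dephosphorylates ERK, was at 14.6 and 15.8 CPM in the inhibitor libraries, against 13.8 and 13.7 CPM in the IL-7 plus CXCL12 libraries (log2 change 0.15 ± 0.16, adjusted p = 0.698). Egr1, a zinc finger factor of the early response, was at 7.05 and 7.64 CPM with the inhibitor, against 8.05 and 7.57 CPM with IL-7 (log2 change −0.09 ± 0.46, adjusted p = 0.962). The groups overlapped for Egr1 and were separated by under 1 CPM for Dusp6. The 2 called falls were of Spry1 and Lif. Spry1, an inhibitor of the RAS-ERK cascade, was at 0.791 and 1.36 CPM with the inhibitor, against 1.81 and 2.44 CPM with IL-7 (log2 change −0.98 ± 0.27, adjusted p = 0.0342). Lif, a cytokine gene that the STAT5 list holds too, was at 3.34 and 3.46 CPM with the inhibitor, against 6.93 and 6.38 CPM with IL-7 (log2 change −0.97 ± 0.27, adjusted p = 0.0348). Both lost the call when a library was left out, with adjusted p up to 0.302 for Spry1 and 0.207 for Lif.

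The 3 early genes that were higher were Klf6, Btg2 and Elk3. Klf6, a zinc finger factor, was at 128 and 124 CPM in the inhibitor libraries, against 86.6 and 90.5 CPM in the IL-7 plus CXCL12 libraries (log2 change 0.51 ± 0.10, adjusted p = 0.00789). Btg2, which restrains proliferation, was at 131 and 132 CPM with the inhibitor, against 99.0 and 101 CPM with IL-7 (log2 change 0.39 ± 0.10, adjusted p = 0.0261). The ETS factor Elk3 was at 40.6 and 41.7 CPM with the inhibitor, against 31.4 and 30.7 CPM with IL-7 (log2 change 0.41 ± 0.08, adjusted p = 0.00574). None of the 3 was called in every fit without 1 library (adjusted p up to 0.109, 0.186 and 0.0789). In the cascade itself 1 of 20 genes was called: Rasgrp1, which loads RAS with GTP below antigen receptors, fell to 36.7 and 36.0 CPM in the inhibitor libraries, against 63.8 and 63.4 CPM with IL-7 plus CXCL12 (log2 change −0.81 ± 0.08, adjusted p = 9.40e-05), and kept the call with each library left out. Mapk3, which encodes ERK1, was at 75.6 and 80.8 CPM with the inhibitor, against 66.1 and 58.3 CPM with IL-7 (adjusted p = 0.153). Sos2 was at 49.3 and 49.7 CPM with the inhibitor, against 39.4 and 44.7 CPM with IL-7 (adjusted p = 0.298). No library with CXCL12 and neither IL-7 nor inhibitor stood in the same set of libraries, so inhibition by the compound could not be checked on its own.

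MYC and the genes that build ribosomes fell together. Of 39 tested, 34 were lower and 0 higher, with a median log2 change of −0.70, and 23 of the 34 were called in every fit without 1 library. In all 39, both inhibitor libraries lay below both others; of all genes tested 36.1% did so, and 68.2% had groups that did not overlap in either direction. Gnl3, which encodes the nucleolar GTPase nucleostemin, was at 114 and 109 CPM in the inhibitor libraries, against 220.0 and 219 CPM in the IL-7 plus CXCL12 libraries (log2 change −0.98 ± 0.06, adjusted p = 9.14e-06). Nop58, a core protein of the particles that methylate ribosomal RNA, was at 217 and 207 CPM with the inhibitor, against 357 and 361 CPM with IL-7 (log2 change −0.76 ± 0.07, adjusted p = 7.33e-05). The mitochondrial chaperone Hspd1, also on this list, was at 452 and 439.8 CPM with the inhibitor, against 790.3 and 768 CPM with IL-7 (log2 change −0.81 ± 0.07, adjusted p = 5.70e-05). Ncl, which encodes the nucleolar protein nucleolin, was at 1930.0 and 1844 CPM in the inhibitor libraries and 3054 and 3080.0 CPM with IL-7 plus CXCL12 (log2 change −0.70 ± 0.09).

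Gene families chosen by symbol after values had been seen are given as counts without weight of their own. The share of all genes tested that were called lower was 4.54%. The assembly factors and polymerase subunits below share called genes with the MYC and ribosome list. The shared ones were Polr1a, Polr1b, Polr1e, Nop2, Nop14, Nop56, Nop58, Rrp9, Rrp12 and Utp20. Among UTP, NOP and RRP assembly factors 15 of 24 were lower and 0 higher (median log2 change −0.46), and among subunits of RNA polymerase I 3 of 5 (−0.58). Polr1b, its second largest subunit, was at 47.0 and 48.9 CPM in the inhibitor libraries, against 101 and 94.5 CPM in the IL-7 plus CXCL12 libraries (log2 change −1.03 ± 0.16, adjusted p = 0.00158). Fewer translation genes passed the test: 8 of 56 initiation factors, 10 of 38 aminoacyl-tRNA synthetases and 3 of 76 mitochondrial ribosomal proteins were lower, with 0 higher in each and medians of −0.26, −0.24 and −0.28. For the mitochondrial ribosomal proteins the share called lower was no larger than the 4.54% of all genes tested. Yet in 72 of the 76 both inhibitor libraries lay below both others, which 36.1% of all genes tested did. Eif2s1, the regulated subunit of the factor that delivers the initiator tRNA, was at 179.5 and 172 CPM with the inhibitor, against 255 and 259 CPM with IL-7 (log2 change −0.55 ± 0.08, adjusted p = 0.00114). Eprs, the glutamyl-prolyl-tRNA synthetase, was at 261 and 263 CPM with the inhibitor, against 362 and 372 CPM with IL-7 (log2 change −0.49 ± 0.07, adjusted p = 0.00128). In the MYC and MAX network of 12 genes, Mycn was lower besides Myc, at 22.7 and 22.1 CPM with the inhibitor, against 36.5 and 44.5 CPM with IL-7 (log2 change −0.85 ± 0.18, adjusted p = 0.00998; up to 0.0932 with 1 library left out). Mxd4, which encodes an antagonist of MYC, was higher at 30.9 and 30.6 CPM with the inhibitor, against 18.8 and 19.6 CPM with IL-7 (log2 change 0.68 ± 0.11, adjusted p = 0.00178). Max, the shared partner of both, did not pass the test (adjusted p = 0.0821).

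The MYC and MAX dimer binds CACGTG, which reads the same on both strands. One member of the list with this motif is shown, Nop2, a ribosomal RNA methyltransferase gene at 73.0 and 76.9 CPM in the inhibitor libraries, against 140.5 and 131 CPM in the IL-7 plus CXCL12 libraries (log2 change −0.85 ± 0.09, adjusted p = 8.86e-05). Its 250 bases upstream, from RefSeq GRCm38.p6, occupy chr6:125131633-125131882 on the plus strand, with CACGTG in capitals 60 bases before the start.
Nop2: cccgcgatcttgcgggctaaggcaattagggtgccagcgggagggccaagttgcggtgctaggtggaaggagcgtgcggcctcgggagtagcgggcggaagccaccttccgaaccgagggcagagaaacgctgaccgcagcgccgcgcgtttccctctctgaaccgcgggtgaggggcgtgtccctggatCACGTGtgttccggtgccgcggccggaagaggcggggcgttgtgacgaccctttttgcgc
The motif was in 2 (6.25%) of the 32 list members with a window and in 6.86% of the 27025 genes.

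**Figure D3:**
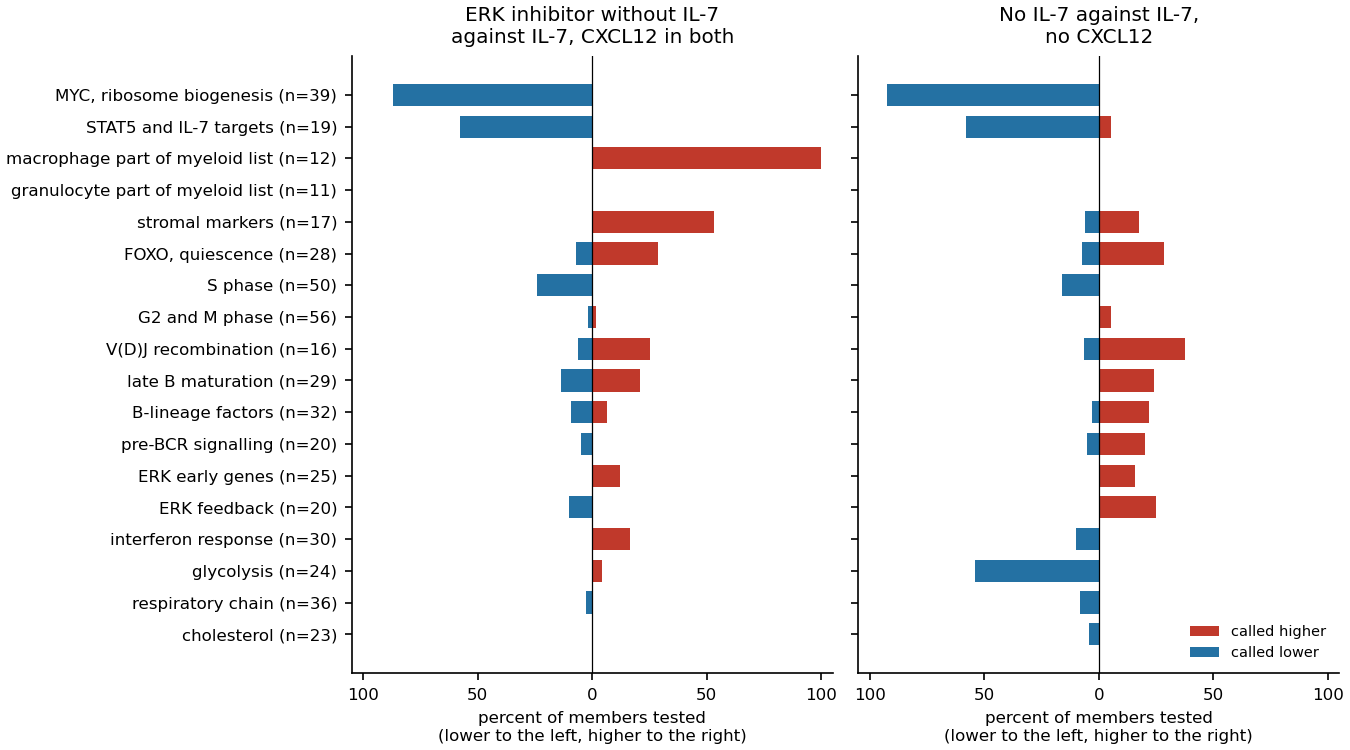
Percent of tested members called lower (blue, to the left) or higher (red, to the right) for 18 gene lists, n being the members tested; the left panel is the inhibitor without IL-7 against IL-7 with CXCL12 in both, the right panel neither factor against IL-7 alone. MYC and ribosome genes and STAT5 targets are mostly lower in both panels, and glycolysis is mostly called lower in the right panel. The macrophage markers are the members of the myeloid list called in the left panel, so all are higher there, and they have no call in the right one.

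Genes of DNA replication were moderately lower. Of 50 tested S phase genes 12 were lower and 0 higher (median log2 change −0.26), and in 48 both inhibitor libraries lay below both others, which 36.1% of all genes tested did. Exo1, an exonuclease of DNA repair, was at 54.0 and 55.4 CPM in the inhibitor libraries, against 72.1 and 75.0 CPM in the IL-7 plus CXCL12 libraries (log2 change −0.43 ± 0.07, adjusted p = 0.00273). The helicase subunit Mcm3 was at 379 and 403 CPM with the inhibitor, against 531 and 495 CPM with IL-7 (log2 change −0.39 ± 0.08, adjusted p = 0.00994). Mcm7 of the same ring was at 410.0 and 421 CPM with the inhibitor, against 553 and 521 CPM with IL-7 (log2 change −0.37 ± 0.08, adjusted p = 0.00945). These falls were small: 1 of the 12, Exo1, was called in every fit without 1 library, and the adjusted p reached 0.111 for Mcm3 and 0.089 for Mcm7. Of 56 genes of G2 and M phase, 1 was lower, Gtse1 (log2 change −0.35 ± 0.08, adjusted p = 0.013; up to 0.101 with 1 library left out), and 1 higher, the phosphatase gene Cdc25b (log2 change 0.36 ± 0.10, adjusted p = 0.0448; up to 0.359 with 1 library left out), with a median of −0.12. Both inhibitor libraries lay below both others in 42 of the 56 and above both in 4, beside 36.1% and 32.1% of all genes tested. The proliferation marker Mki67 was at 1739 and 1848 CPM in the inhibitor libraries, against 1761 and 2019 CPM in the IL-7 plus CXCL12 libraries (adjusted p = 0.842), so the libraries overlapped.

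Cyclins and their inhibitors moved both ways, beside 6.5% called higher and 4.54% lower of all genes tested. Among 18 genes, Ccnd2 and Cdk4 were lower and the CDK inhibitors Cdkn1c and Cdkn1b higher. Cdk4, the kinase that D cyclins activate, was at 339 and 357 CPM in the inhibitor libraries, against 486 and 450.2 CPM in the IL-7 plus CXCL12 libraries (log2 change −0.43 ± 0.11, adjusted p = 0.0303). Cdkn1b, which encodes p27, was at 136 and 123 CPM with the inhibitor, against 92.4 and 106 CPM with IL-7 (log2 change 0.39 ± 0.10, adjusted p = 0.0303). Cdkn1c, which encodes p57, was at 12.0 and 10.0 CPM with the inhibitor, against 2.57 and 3.74 CPM with IL-7 (log2 change 1.80 ± 0.23, adjusted p = 0.000416). The call held with each library left out for Cdkn1c, while the adjusted p reached 0.198 for Cdk4 and 0.321 for Cdkn1b. Ccnd1 was at 4.97 and 4.86 CPM with the inhibitor, against 2.18 and 2.08 CPM with IL-7 (adjusted p = 0.0672). Ccnd3 was at 1038 and 1073 CPM with the inhibitor, against 1129 and 1095 CPM with IL-7 (adjusted p = 0.816).

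FOXO targets and quiescence genes were higher more often than lower. Of 28 tested, 8 were higher and 2 lower (median log2 change 0.28), beside 6.5% and 4.54% of all genes tested. Besides Il7r and Btg2, Pik3ip1, an inhibitor of PI3 kinase, was at 40.1 and 37.6 CPM in the inhibitor libraries, against 26.9 and 27.4 CPM in the IL-7 plus CXCL12 libraries (log2 change 0.52 ± 0.11, adjusted p = 0.00839). Tsc22d3, a glucocorticoid-induced leucine zipper gene, was at 59.9 and 59.8 CPM with the inhibitor, against 37.5 and 37.6 CPM with IL-7 (log2 change 0.67 ± 0.15, adjusted p = 0.0143). Of the falls, Cited2, a coactivator gene, was at 55.0 and 50.5 CPM with the inhibitor, against 91.9 and 110.4 CPM with IL-7 (log2 change −0.94 ± 0.12, adjusted p = 0.000296). Il7r and Cited2 were the 2 of these 10 called in every fit without 1 library (up to 0.0818 for Pik3ip1 and 0.109 for Tsc22d3). Foxo1 itself was at 246 and 243 CPM with the inhibitor, against 219.5 and 225 CPM with IL-7 (adjusted p = 0.436). An edgeR fit of the 4 libraries alone called it (log2 change 0.17, adjusted p = 0.0181).

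The recombinase genes rose. Rag2 was at 58.7 and 55.9 CPM in the inhibitor libraries, against 26.7 and 25.2 CPM in the IL-7 plus CXCL12 libraries (log2 change 1.14 ± 0.08, adjusted p = 9.14e-06), and kept the call with each library left out. Rag1 was at 189 and 184 CPM with the inhibitor, against 82.0 and 81.4 CPM with IL-7 (log2 change 1.19 ± 0.25, adjusted p = 0.00873). Both genes were more than 2-fold higher in each inhibitor library than in each other library, although the adjusted p of Rag1 reached 0.0835 with 1 library left out. Of 16 tested genes of V(D)J recombination 4 were higher and 1 lower (median log2 change 0.02), beside 6.5% and 4.54% of all genes tested. Dntt, the polymerase that adds untemplated bases at heavy chain joints, was at 506 and 520.5 CPM in the inhibitor libraries, against 325 and 306 CPM in the IL-7 plus CXCL12 libraries (log2 change 0.70 ± 0.19, adjusted p = 0.0307; up to 0.199 with 1 library left out). The 2 Ku subunits went apart: Xrcc6 was at 370.3 and 391 CPM with the inhibitor, against 308 and 282 CPM with IL-7 (log2 change 0.37 ± 0.10, adjusted p = 0.0382). Xrcc5 was at 38.6 and 37.8 CPM with the inhibitor, against 56.0 and 54.2 CPM with IL-7 (log2 change −0.53 ± 0.12, adjusted p = 0.0111). With 1 library left out the adjusted p reached 0.327 for Xrcc6 and 0.0956 for Xrcc5. Polm, a gap-filling polymerase of light chain joining, was at 9.76 and 10.5 CPM with the inhibitor, against 9.93 and 10.1 CPM with IL-7 (log2 change 0.02 ± 0.13, adjusted p = 0.981), so the groups overlapped.

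B-lineage transcription factors had calls in both directions. Of 32 tested, 2 were higher and 3 lower (median log2 change 0.06), beside 6.5% and 4.54% of all genes tested. Id2, an antagonist of E proteins, was at 74.3 and 65.7 CPM in the inhibitor libraries, against 28.6 and 26.6 CPM in the IL-7 plus CXCL12 libraries (log2 change 1.34 ± 0.22, adjusted p = 0.00175). Bcl11a, required for early B cell development, was at 137 and 128 CPM with the inhibitor, against 219.6 and 253 CPM with IL-7 (log2 change −0.84 ± 0.13, adjusted p = 0.00119). These 2 were called in every fit without 1 library. Myb, a factor of progenitor cells, was at 731 and 719.7 CPM with the inhibitor, against 568 and 583 CPM with IL-7 (log2 change 0.33 ± 0.07, adjusted p = 0.0111). The octamer-binding factor Pou2f2 was at 28.1 and 28.1 CPM with the inhibitor, against 41.9 and 43.0 CPM with IL-7 (log2 change −0.60 ± 0.12, adjusted p = 0.00574). Irf8, a partner of PU.1, was at 284 and 285 CPM with the inhibitor, against 347 and 371 CPM with IL-7 (log2 change −0.34 ± 0.08, adjusted p = 0.0209). Their adjusted p reached 0.13, 0.0545 and 0.131 with 1 library left out.

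Irf4, which promotes light chain recombination and the exit from cycling, was at 218 and 218 CPM in the inhibitor libraries, against 198 and 200.3 CPM in the IL-7 plus CXCL12 libraries (log2 change 0.13 ± 0.10, adjusted p = 0.501). The identity factors Pax5 and Ebf1 were also measured: Pax5 was at 159.9 and 179 CPM with the inhibitor, against 205 and 205 CPM with IL-7 (adjusted p = 0.581). Ebf1 was at 317 and 314 CPM with the inhibitor, against 268 and 272 CPM with IL-7 (adjusted p = 0.661). Of the Ikaros family, Ikzf1 was at 460.2 and 458 CPM with the inhibitor, against 534 and 549 CPM with IL-7 (adjusted p = 0.398). Ikzf3 was at 234 and 249 CPM with the inhibitor, against 246 and 276 CPM with IL-7 (adjusted p = 0.89). None of these passed edgeR's test, nor did Spib, Brwd1, Bcl6 or Id3, with log2 changes of −0.21, 0.32, 0.28 and 0.24 and adjusted p of 0.149, 0.075, 0.407 and 0.664. DESeq2 called Spib (adjusted p = 0.048) and Brwd1 (0.0299), and Brwd1 was called with RLE factors (0.0464). In an edgeR fit of the 4 libraries alone, Irf4, Pax5, Ebf1, Ikzf1, Spib, Brwd1, Bcl6 and Id3 were called (adjusted p from 0.000649 to 0.0226). That fit called 44.8% of the genes it tested. The surrogate light chain genes Vpreb1, at 544 and 549 CPM with the inhibitor, against 575 and 529.7 CPM with IL-7 (adjusted p = 1), and Igll1, at 660.1 and 673 CPM with the inhibitor, against 771 and 683 CPM with IL-7 (adjusted p = 0.864), had groups that overlapped or nearly touched between media.

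Late B cell genes had calls in both directions, beside 6.5% higher and 4.54% lower of all genes tested. Of 29 tested, 6 were higher and 4 lower (median log2 change 0.01): 5 genes of class II antigen presentation and Ighd were higher, and Ms4a1, Cd22, Cd83 and Cd37 lower. The class II chain H2-Aa was at 279 and 294 CPM in the inhibitor libraries, against 110.4 and 100.4 CPM in the IL-7 plus CXCL12 libraries (log2 change 1.44 ± 0.12, adjusted p = 2.85e-05). H2-Eb1 was at 162 and 162 CPM with the inhibitor, against 68.5 and 68.7 CPM with IL-7 (log2 change 1.24 ± 0.21, adjusted p = 0.00232). H2-Ab1 was at 218 and 225 CPM with the inhibitor, against 105 and 103 CPM with IL-7 (log2 change 1.09 ± 0.18, adjusted p = 0.00236). Each was more than 2-fold higher and was called in every fit without 1 library. H2-DMa, which loads peptides on class II, was at 55.0 and 58.9 CPM with the inhibitor, against 35.2 and 32.5 CPM with IL-7 (log2 change 0.75 ± 0.13, adjusted p = 0.00305; up to 0.0578 with 1 library left out). Macrophages carry class II too, and the 12 macrophage markers described further on summed to 2783 and 2843 CPM with the inhibitor, against 749 and 707 CPM with IL-7; their part in the class II rise was not tested.

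Of the 4 that were lower, Ms4a1, which encodes CD20, was at 30.7 and 28.7 CPM in the inhibitor libraries, against 99.2 and 98.4 CPM in the IL-7 plus CXCL12 libraries (log2 change −1.73 ± 0.32, adjusted p = 0.00408). Cd22, an inhibitory lectin of the B cell receptor, was at 38.6 and 42.4 CPM with the inhibitor, against 93.7 and 85.9 CPM with IL-7 (log2 change −1.15 ± 0.21, adjusted p = 0.00385). Cd83, an activation marker, was at 9.03 and 9.15 CPM with the inhibitor, against 14.2 and 14.2 CPM with IL-7 (log2 change −0.64 ± 0.13, adjusted p = 0.00613). All 3 were lower in both inhibitor libraries; without 1 library the adjusted p reached 0.0534, 0.0511 and 0.0652. Cd22 was also the 1 gene called among 20 of pre-BCR signalling, with 0 higher and a median of −0.08. Blk, a SRC family kinase there, was at 378 and 384 CPM with the inhibitor, against 336 and 304 CPM with IL-7 (adjusted p = 0.059). Plcg2, the phospholipase below the pre-BCR, was at 379 and 402 CPM with the inhibitor, against 559 and 527 CPM with IL-7 (adjusted p = 0.0587). Ighd, the delta heavy chain gene, was at 74.6 and 75.7 CPM with the inhibitor, against 59.2 and 60.5 CPM with IL-7 (log2 change 0.33 ± 0.09, adjusted p = 0.0325; up to 0.229 with 1 library left out).

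The largest rises included several genes that macrophages express. Among genes averaging at least 3 in log2 CPM the 12 with the largest rises were Mamdc2, F7, Fabp4, Mmp19, Cd300ld, Slc7a2, Itgax, Mertk, C1qc, C1qb, C1qa and Sdc3, with log2 changes from 3.01 for Sdc3 to 4.39 for Mamdc2, and all 12 kept their call with each library left out. Itgax, the integrin chain CD11c of dendritic cells and macrophages, was at 85.6 and 90.0 CPM in the inhibitor libraries, against 8.55 and 8.44 CPM in the IL-7 plus CXCL12 libraries (log2 change 3.37 ± 0.24, adjusted p = 9.14e-06). C1qb, a chain of the complement component C1q made by macrophages, was at 59.2 and 60.5 CPM with the inhibitor, against 6.47 and 6.89 CPM with IL-7 (log2 change 3.16 ± 0.28, adjusted p = 7.45e-05). Mertk, a receptor for the uptake of dead cells, was at 24.9 and 26.8 CPM with the inhibitor, against 2.32 and 2.72 CPM with IL-7 (log2 change 3.36 ± 0.31, adjusted p = 0.000133). In all 12, both inhibitor libraries stood several-fold above both others, a separation that the rule for choosing them required.

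Markers of other cell types were measured as lists. Of 25 tested granulocyte, monocyte and macrophage markers 12 were higher and 0 lower, and their summed level was 4024 and 4106 CPM with the inhibitor, against 2193 and 2028 CPM with IL-7. The list was split after values had been seen, and some tested markers were in neither part. The 12 macrophage markers were the same 12 that were called in the whole list. All 12 being higher (median log2 change 2.15) therefore follows from the split. So does the lack of calls among the 11 granulocyte markers, 0 in either direction (median −0.16, with 0 at an unadjusted p under 0.05 in edgeR and 0 by DESeq2). The macrophage markers summed to 2783 and 2843 CPM with the inhibitor, against 749 and 707 CPM with IL-7, and the granulocyte markers to 1188 and 1208 CPM with the inhibitor, against 1384 and 1267 CPM with IL-7. Emr1, which encodes the macrophage surface protein F4/80, was at 100.5 and 97.2 CPM in the inhibitor libraries, against 21.8 and 20.9 CPM in the IL-7 plus CXCL12 libraries (log2 change 2.21 ± 0.32, adjusted p = 0.000936). Csf1r, the receptor of the macrophage growth factor, was at 216 and 231 CPM with the inhibitor, against 53.3 and 51.1 CPM with IL-7 (log2 change 2.10 ± 0.51, adjusted p = 0.0193; up to 0.151 with 1 library left out). S100a8, a protein of granulocytes, was at 297 and 291 CPM with the inhibitor, against 352 and 316 CPM with IL-7 (adjusted p = 0.912). No macrophage marker was at 0 in the IL-7 plus CXCL12 libraries, although the labels' protocols describe sorted B cells.

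Families with members active in macrophages, again grouped after values had been seen, had called rises. The share of all genes tested that were called higher was 6.5%. Of 14 tested cathepsins, proteases of the lysosome, 10 were higher and 0 lower, and Ctsd was at 2118 and 2223 CPM in the inhibitor libraries, against 504 and 449 CPM in the IL-7 plus CXCL12 libraries (log2 change 2.19 ± 0.25, adjusted p = 0.000179). Ctss, which trims the class II invariant chain, was at 924 and 948 CPM with the inhibitor, against 243 and 229 CPM with IL-7 (log2 change 1.99 ± 0.11, adjusted p = 2.03e-06). No member was called lower in 6 such families: besides the cathepsins, 6 of 16 matrix metalloproteinases were higher, 5 of 19 subunits of the vacuolar proton pump, 3 of 4 Fc gamma receptors, 3 of 12 Toll-like receptors and 3 of 8 CD300 receptors. Mmp12, the macrophage elastase, was at 939 and 905 CPM with the inhibitor, against 182 and 177 CPM with IL-7 (log2 change 2.36 ± 0.23, adjusted p = 7.70e-05). Atp6v0d2, a pump subunit of macrophages and osteoclasts, was at 218 and 216 CPM with the inhibitor, against 28.4 and 28.7 CPM with IL-7 (log2 change 2.92 ± 0.42, adjusted p = 0.0015).

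**Figure D4:**
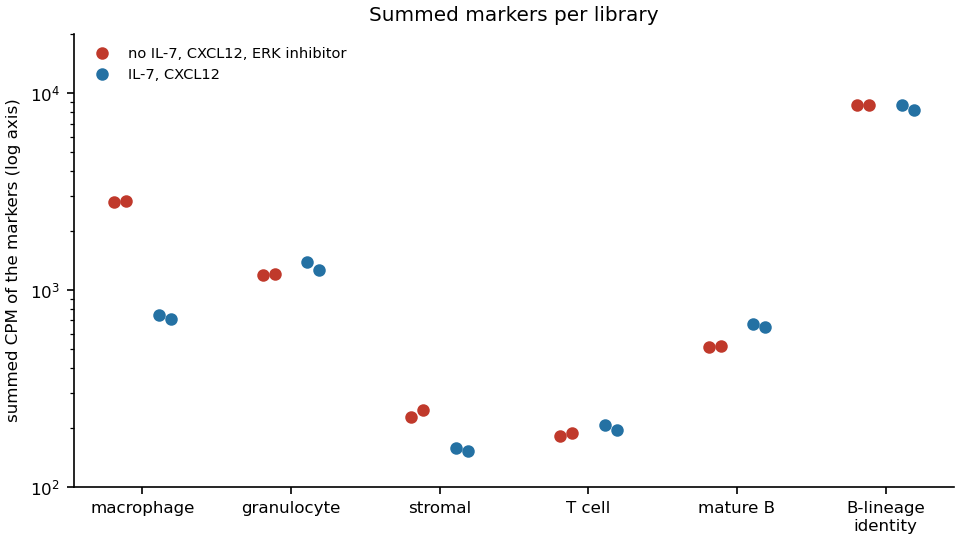
Summed CPM of marker lists per library on a log axis, with red for the inhibitor without IL-7 left of blue for IL-7, CXCL12 in both. The macrophage sum is higher in both inhibitor libraries, the granulocyte, T cell and mature B cell sums lie somewhat lower, and the B-lineage identity sums lie close together.

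Stromal markers were the other list with many rises: 9 of 17 were higher and 0 lower, at a summed level of 226 and 244 CPM with the inhibitor, against 158 and 152 CPM with IL-7. Col1a1, a collagen of fibroblasts, was at 13.2 and 13.6 CPM in the inhibitor libraries, against 3.14 and 2.96 CPM in the IL-7 plus CXCL12 libraries (log2 change 2.14 ± 0.36, adjusted p = 0.00237) and was the 1 stromal gene called in every fit without 1 library. T cell markers had 1 of 13 called, Cd4, which was higher (log2 change 1.37 ± 0.34, adjusted p = 0.0261; up to 0.23 with 1 library left out), and a summed level of 180.2 and 187 CPM with the inhibitor, against 206 and 194 CPM with IL-7. The NK cell, plasmacytoid dendritic cell, mast cell and megakaryocyte lists had 0 called by edgeR of 9, 10, 9 and 8 tested, with 2, 2, 0 and 1 at an unadjusted p under 0.05 and 0 by DESeq2 in each. Of 7 erythroid markers the transferrin receptor gene Tfrc, which growing cells use as well, was lower at 775 and 733 CPM with the inhibitor, against 1073 and 1126 CPM with IL-7 (log2 change −0.54 ± 0.09, adjusted p = 0.00233); all 4 listed haemoglobin genes were at 0. Of 10 plasma cell markers Sdc1 and Prdm1 were higher and Xbp1 and Derl3 lower, with Sdc1 and Xbp1 called in every fit without 1 library. Of 13 mature B cell markers 1 was higher and 3 lower, at a summed level of 516 and 516 CPM with the inhibitor, against 668 and 647 CPM with IL-7, and of 14 progenitor markers 3 were higher and 0 lower. Of 12 RNA stress genes Neat1 was higher (log2 change 0.51 ± 0.09, adjusted p = 0.00311; up to 0.0637 with 1 library left out) and Hsph1 lower (log2 change −0.50 ± 0.12, adjusted p = 0.0222; up to 0.138 with 1 library left out). The part of these cells and states in the other groups was not tested.

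Glycolysis, respiratory chain and cholesterol genes had 1, 1 and 0 calls. Of 24 glycolysis genes 1 was higher and 0 lower (median log2 change −0.06): Aldoc, a brain-type aldolase, at 11.2 and 11.7 CPM in the inhibitor libraries, against 4.77 and 5.06 CPM in the IL-7 plus CXCL12 libraries (log2 change 1.22 ± 0.22, adjusted p = 0.00334; up to 0.0542 with 1 library left out). Ldha, lactate dehydrogenase, was at 1053 and 1090.0 CPM with the inhibitor, against 1430.0 and 1305 CPM with IL-7 (adjusted p = 0.156). Of 36 respiratory chain genes 1 was lower, Atp5b (log2 change −0.33 ± 0.09, adjusted p = 0.0407; up to 0.2 with 1 library left out), with a median of −0.20, and of 23 cholesterol genes 0 were called by edgeR (1 at an unadjusted p under 0.05 and 1 by DESeq2, median −0.04). Both inhibitor libraries lay below both others in 30 of the 36 respiratory chain genes, which 36.1% of all genes tested did. Among 27 ATF4 targets and amino acid genes, Shmt2, Psat1 and Slc7a5 were lower and Slc7a11 and Trib3 higher. Of these 5, Shmt2 alone was called in every fit without 1 library. Shmt2, the mitochondrial serine enzyme, was at 242 and 255 CPM with the inhibitor, against 379 and 347 CPM with IL-7 (log2 change −0.55 ± 0.08, adjusted p = 0.00111). Of 20 unfolded protein response genes 3 were lower, with Xbp1, its transcription factor, at 152 and 146 CPM with the inhibitor, against 261 and 250.0 CPM with IL-7 (log2 change −0.78 ± 0.08, adjusted p = 8.01e-05), and Canx and Hspa5 by less (log2 change −0.37 and −0.37; adjusted p up to 0.0856 and 0.171 with 1 library left out).

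Survival, stress and migration lists had calls in both directions, beside 6.5% higher and 4.54% lower of all genes tested. In the BCL2 family of 15, Bcl2a1b was higher at 18.1 and 19.0 CPM in the inhibitor libraries, against 6.15 and 5.70 CPM in the IL-7 plus CXCL12 libraries (log2 change 1.65 ± 0.21, adjusted p = 0.000831), while Bcl2, Bid and Bcl2l11 were lower; Bcl2a1b alone was called in every fit without 1 library. Bcl2a1b has near-identical copies in the genome, so its own count is uncertain. Bcl2l11, which encodes the killer BIM, was at 81.5 and 78.6 CPM with the inhibitor, against 102 and 104 CPM with IL-7 (log2 change −0.36 ± 0.10, adjusted p = 0.034; up to 0.218 with 1 library left out). Of 22 p53 targets 3 were higher and 2 lower, Plk2 being called in every fit without 1 library (log2 change 1.21 ± 0.18, adjusted p = 0.000952). In 36 migration genes 8 were higher and 1 lower, among them Rgs1, an inhibitor of chemokine receptor signalling, at 21.1 and 18.9 CPM with the inhibitor, against 7.80 and 7.76 CPM with IL-7 (log2 change 1.36 ± 0.24, adjusted p = 0.00308). Cd44, a hyaluronan receptor, was at 209 and 202 CPM with the inhibitor, against 148 and 149 CPM with IL-7 (log2 change 0.47 ± 0.10, adjusted p = 0.00815; up to 0.0972).

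Of 30 interferon response genes 5 were higher and 0 lower (median log2 change 0.34), and 23 lay higher in both inhibitor libraries than in both others, which 32.1% of all genes tested did. The antiviral gene Rsad2 was at 7.43 and 6.83 CPM in the inhibitor libraries, against 1.58 and 1.28 CPM in the IL-7 plus CXCL12 libraries (log2 change 2.32 ± 0.55, adjusted p = 0.0166). Oas3 was at 14.6 and 15.7 CPM with the inhibitor, against 5.32 and 6.38 CPM with IL-7 (log2 change 1.37 ± 0.34, adjusted p = 0.0211). None of the 5 was called in every fit without 1 library, with adjusted p up to 0.161 for Rsad2 and 0.192 for Oas3. Of 20 genes of the NF-kB pathway, Bcl2a1b was higher and Nfkbiz lower (log2 change −0.35 ± 0.10, adjusted p = 0.0388; up to 0.229). Of 31 chromatin genes, Dnmt3a, a DNA methyltransferase, was higher at 168 and 174 CPM with the inhibitor, against 109.8 and 114 CPM with IL-7 (log2 change 0.61 ± 0.12, adjusted p = 0.00507), Kdm5b was higher (log2 change 0.53 ± 0.15, adjusted p = 0.0446) and Uhrf1 lower (log2 change −0.29 ± 0.08, adjusted p = 0.0349); each lost the call with some library left out (up to 0.0728, 0.259 and 0.248). The kinesin family had 4 higher and 0 lower of 32. For comparison, rises made up 6.5% and falls 4.54% of the 14862 genes. Calls in the NF-kB and chromatin lists were about as frequent as that, so they do not set these 2 lists apart.

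The change was set beside IL-7 withdrawal, neither factor against IL-7 alone, which shares no library with it. There 1758 genes (11.8%) were called, 832 (5.6%) higher and 926 (6.23%) lower. Of the 674 genes lower with the inhibitor, 520 (77.2%) were lower on withdrawal too, which was 56.2% of that list. Of the genes higher with the inhibitor, 248 (25.7%) were higher on withdrawal too, which was 29.8% of that list. Opposite calls were few, at 11 of the genes higher and 13 of the genes lower with the inhibitor.

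The MYC, ribosome and STAT5 lists were mostly lower in both. MYC and ribosome genes were lower in 36 of 39 on withdrawal with a median log2 change of −0.83, and STAT5 and IL-7 targets in 11 of 19 with −0.66. Myc was at 84.1 and 84.5 CPM with neither factor and 159 and 164 CPM with IL-7 alone (log2 change −0.94 ± 0.08, adjusted p = 2.10e-05). Rag2 rose there too, at 36.8 and 37.3 CPM with neither factor and 17.3 and 15.8 CPM with IL-7 alone (log2 change 1.16 ± 0.08, adjusted p = 9.32e-06), and so did Rag1 (log2 change 1.05 ± 0.25, adjusted p = 0.0169; up to 0.124 with 1 library left out) and Il7r (log2 change 1.29 ± 0.11, adjusted p = 3.59e-05). For Myc, Rag1, Rag2, Il7r and Cish the difference between the 2 changes did not pass edgeR's test (adjusted p = 0.0936, 1, 1, 0.717 and 0.955). The Myc difference of −0.42 ± 0.11 was called by DESeq2 (adjusted p = 0.00027) and with the groups compared alone (0.000124), and the Il7r difference of −0.27 ± 0.16 with the groups compared alone (0.012).

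The difference between the 2 changes, tested in the same model, was called for 237 genes (1.59%), 153 (1.03%) above and 84 (0.565%) below 0, a value above 0 meaning that the change with the inhibitor was more positive. CXCL12, the inhibitor and the set of libraries, which stands apart in genes such as Gapdh, cannot be told apart in this difference. It was called in each of the 8 fits without 1 library for 77 of them. Differences were ranked among genes averaging at least 3 in log2 CPM over the inhibitor and IL-7 plus CXCL12 libraries. Arg1, below that level, differed by more than any gene so ranked. The 6 largest positive differences in this ranking were of Mmp19, F7, Aldoc, Mamdc2, Slc7a2 and Itgax. Mmp19 was called in 1 of the 8 and the other 5 in all 8 (adjusted p up to 0.168 for Mmp19). Itgax was at 1.82 and 1.56 CPM with neither factor and 0.967 and 1.45 CPM with IL-7 alone, and the difference was 2.88 ± 0.35 on the log2 scale (adjusted p = 0.00159). The macrophage markers were grouped after their rise with the inhibitor had been seen, so their differences are not independent of that choice. Of the 12 macrophage markers 0 were called by edgeR on withdrawal (4 at an unadjusted p under 0.05 and 2 by DESeq2), with a median log2 change of 0.69 and mean sums of 269 CPM with neither factor and 171 CPM with IL-7 alone, and 4 had a called difference, C1qa, C1qb, C1qc and Mrc1, in 4, 4, 1 and 1 of the 8 fits without 1 library. The last, a mannose receptor of macrophages, differed by 2.42 ± 0.47 (adjusted p = 0.0225; up to 0.141 with 1 library left out).

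**Figure D5:**
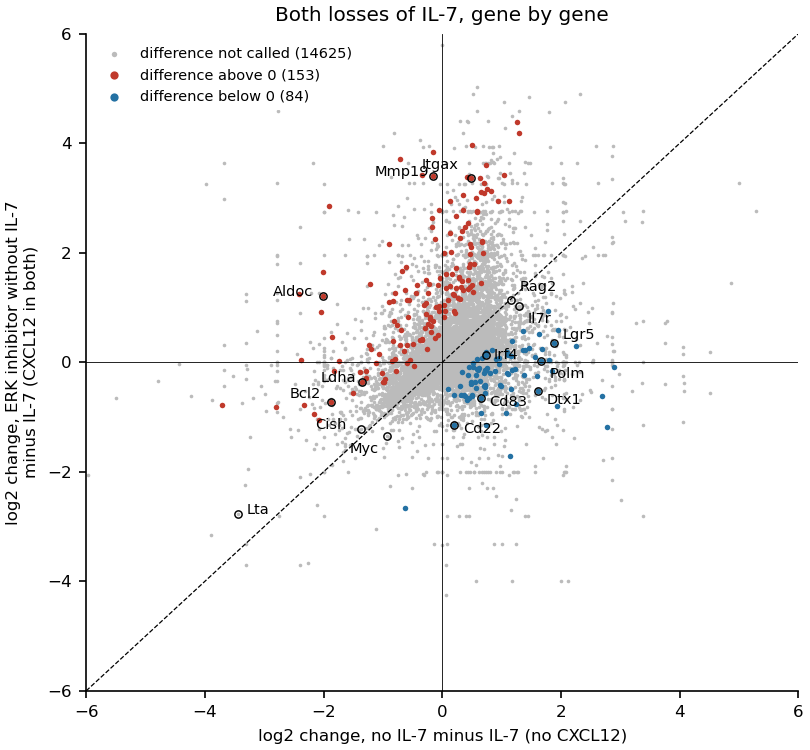
Log2 change with the inhibitor without IL-7 minus IL-7, CXCL12 in both (vertical axis), against log2 change with neither factor minus IL-7 alone (horizontal axis), 1 point per gene tested; genes beyond 6 on either axis are not drawn. Red points are the 153 genes whose difference was called above 0 and blue points the 84 called below 0; Myc, Cish, Lta, Rag2 and Il7r are grey and near the dashed line of equal change, Itgax and Mmp19 far above it and Polm and Lgr5 below it.

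Glycolysis genes, Gapdh among the 24, had 1 call with the inhibitor, the rise of Aldoc, and a median log2 change of −0.06. On withdrawal 13 of 24 genes were lower, with a median log2 change of −0.83, and the difference was called above 0 for 8 and below 0 for 0. Aldoc was at 4.38 and 4.79 CPM with neither factor and 21.0 and 16.0 CPM with IL-7 alone, so its change had the opposite sign there (log2 change −2.02 ± 0.22), and the difference was 3.23 ± 0.31 (adjusted p = 0.00042). Pfkp, a phosphofructokinase, was at 68.4 and 65.7 CPM with neither factor and 121 and 119 CPM with IL-7 alone, beside 102 and 110.4 CPM in the inhibitor libraries and 106 and 102 CPM with IL-7 plus CXCL12 (difference 0.87 ± 0.12, adjusted p = 0.00304). Aldoc and Pfkp kept the call of the difference in all 8 fits without 1 library, while Ldha (1.00, adjusted p = 0.028) kept it in 0 and Pkm (1.10, adjusted p = 0.00927) in 4 of the 8. Bcl2 also fell further on withdrawal, to 10.1 and 10.1 CPM with neither factor, against 37.5 and 36.8 CPM with IL-7 alone (difference 1.15 ± 0.18, adjusted p = 0.00783; up to 0.0597).

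Negative differences were of genes whose change was more positive on withdrawal. Among genes averaging at least 3 in log2 CPM, as above, the 6 largest were of Dtx1, Lrrc32, Tmem108, Spns3, Polm and Kif19a. All but Lrrc32 were called higher on withdrawal and not called with the inhibitor. Shank1, below that level, had a larger negative difference than these 6. Polm was at 61.3 and 60.9 CPM with neither factor and 20.5 and 18.2 CPM with IL-7 alone (log2 change 1.66 ± 0.13), and the difference was −1.64 ± 0.18 (adjusted p = 0.000849). Dtx1, a Notch pathway gene, was at 24.3 and 25.0 CPM with neither factor and 8.50 and 7.55 CPM with IL-7 alone, beside 10.3 and 9.07 CPM in the inhibitor libraries and 12.7 and 15.2 CPM with IL-7 plus CXCL12 (difference −2.14 ± 0.22, adjusted p = 0.000668). Lgr5, a receptor of the WNT pathway, differed likewise (−1.53 ± 0.17, adjusted p = 0.00115). These 3 differences were called in all 8 fits without 1 library, that of Lrrc32 in 1 (adjusted p up to 0.0998).

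Of 29 late B cell genes the difference was called below 0 for 4 (Cd83, Faim3, Cd72 and Cd22) and above 0 for 1, H2-Aa (0.80 ± 0.17, adjusted p = 0.0397; up to 0.222 with 1 library left out). Of 32 B-lineage factors it was called below 0 for Pou2f2 and Irf4 and above 0 for 0. Irf4 was at 386 and 376 CPM with neither factor and 235 and 224 CPM with IL-7 alone (log2 change 0.73 ± 0.10, adjusted p = 0.000442), and the difference just passed the test (−0.60 ± 0.13, adjusted p = 0.0481) but not with a library left out (in 0 of the 8 fits, up to 0.229) nor with a replicate block (0.0697). Cd83, at 5.65 and 5.17 CPM with neither factor and 3.67 and 3.26 CPM with IL-7 alone, differed by −1.29 ± 0.18 (adjusted p = 0.00379) and kept the call in all 8 fits. Cd72 and Cd22, inhibitory receptors of B cells, differed by −1.19 ± 0.24 and −1.35 ± 0.29 (adjusted p = 0.0278 and 0.0427; up to 0.143 and 0.201 with 1 library left out). Of the genes that ERK induces, 5 of 20 feedback genes and 4 of 25 early genes were higher on withdrawal, beside 5.6% of all genes tested. Dusp6 was at 51.8 and 51.6 CPM with neither factor and 29.1 and 29.5 CPM with IL-7 alone (log2 change 0.82 ± 0.16, adjusted p = 0.00623; up to 0.0583 with 1 library left out), but neither Dusp6 (difference −0.67 ± 0.23, adjusted p = 0.252) nor any other gene of these 2 lists had a difference called by edgeR. At an unadjusted p under 0.05 there were 2 early and 4 feedback genes, and DESeq2 called 1 early and 0 feedback genes.

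Cultures with CXCL12 and neither IL-7 nor inhibitor belong to the other set of libraries, where Gapdh was at 1.20 and 1.05 CPM, and the count table's name for the second calls it small pre-B. Their values are therefore given beside those of the inhibitor libraries with no test. Dusp6 was at 14.6 and 15.8 CPM with the inhibitor and 112 and 109.8 CPM without it, Egr1 at 7.05 and 7.64 CPM with the inhibitor and 88.1 and 86.5 CPM without it, and Irf4 at 218 and 218 CPM with the inhibitor and 753 and 722 CPM without it. The presence of the inhibitor and the set of libraries cannot be told apart in these values.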

How the data were processed

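The authors deposited raw gene counts of the RNA-seq libraries as 1 table with 23762 gene symbols; 0 of its columns belonged to no sample. Per the labels' protocols, the library kit selected polyadenylated RNA and kept strand. The submitters' processing notes name STAR, featureCounts and Picard and the build mm9, with versions, roles, annotation and strand setting not given in the sources used here. Values of overlapping, antisense and near-identical genes are therefore uncertain. The ATAC-seq files were not used here.

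One edgeR 4.0.16 model (R 4.3.3) took the unmodified counts of the 18 libraries in 9 groups, so that all groups share the estimate of spread. It used TMM scaling, edgeR's own expression filter and quasi-likelihood tests with robust dispersions, and p was adjusted by Benjamini-Hochberg over the 14862 genes tested, with 0.05 as the limit, in 3 contrasts. SE is the absolute log2 change divided by the square root of F. Replicate pairs of the 4 groups differed by more than sampling noise (chi-square over degrees of freedom 1.46 to 11.2). In simulated counts for the first contrast (14709 genes, 3 draws with 200 genes changed) recovery was 12.9% at 1.5-fold, 50.2% at 2-fold and 82% at 4-fold, and 6.03% of calls were false. The data had 1640 calls, and the adjusted limit depends on how many genes change. Recovery in the data was therefore not measured by these draws.

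The comparison, the 26 biology lists, the 13 marker lists and the rule for named genes were chosen with earlier results of these data known; a split of 1 marker list and 12 symbol families were added after values were seen. The rule named 27 regulators and up to 4 members of each list by smallest p. It also named the 12 largest called rises and the 12 largest falls without overlap of groups, and the 6 largest called differences in each direction. These rankings took genes averaging at least 3 in log2 CPM over the 4 libraries of the first comparison. They passed over pseudogenes, unnamed predicted genes and immunoglobulin variable segments. Other genes named here, such as Mmp12, Emr1, Csf1r, Ctsd and Pfkp, were picked after their values were seen. Older symbols were matched through RefSeq synonyms. Promoter windows are RefSeq GRCm38.p6. The alternatives were RLE factors, dropping the filter, a minimum of 1 CPM in 2 libraries, DESeq2 1.42.0, a fit of the compared groups alone, a block for replicate number, a null of 2-fold, and omission of each library, where the lone partner is assumed to vary like the other groups. Tables and figures were made in Python 3.11.15 using pandas 2.3.3, numpy 2.4.6 and matplotlib 3.10.9.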

Additional observations from a re-analysis of the deposited data

How the results depend on the processing

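Each medium had 2 libraries, and the 9 groups shared 1 estimate of the spread. With the inhibitor against IL-7 plus CXCL12, the 1640 calls became 6068 with the groups compared alone and 121 for a change of at least 2-fold, and 655 to 720 without 1 library. For IL-7 withdrawal the 1758 calls became 7299, 34 and 2676 (DESeq2), and 589 to 851 without 1 library. For the difference, the 237 calls became 2590, 19 and 630 (DESeq2), and 81 to 173 without 1 library. The groups compared alone estimate their spread from 4 or 8 libraries, and the 2-fold test has a larger null; the cause of the other shifts was not tested. RLE size factors, no filter and at least 1 CPM in 2 libraries kept each of these counts within 1.5 times, as did DESeq2 for the first comparison (2288), of whose calls 1611 were also called by edgeR. RLE moved the median log2 change over all genes by 0.03 and the share of higher calls to 66.7%. No named gene reversed under any alternative run. With the groups compared alone, 59 genes named for the first comparison gained a call, in a fit that called 44.8% of the genes tested. Of the 108 named genes called in the first comparison, 43 to 48 lost the call in each fit without 1 library, and 47 kept it in every one. Listed genes called in the first comparison without 1 library were 23 to 25 of MYC and ribosome biogenesis (34 with all), 7 to 10 of STAT5 and IL-7 targets (11), 6 of myeloid markers (12), 1 to 5 of S phase (12), and 3 to 5 higher and 1 to 4 lower of late B genes (6 and 4). With the 2-fold test 1 MYC and ribosome gene and 2 STAT5 and IL-7 targets were called. Same-numbered libraries did not deviate together (r = −0.07 and −0.01 across genes). Each r rests on 1 deviation per group, so whether the numbers pair the libraries is not settled by it. With a replicate block 1536, 1650 and 191 genes were called, and Cdc25b, Nfkbiz and Kdm5b lost the call (adjusted p = 0.0578, 0.0525 and 0.0591). Genes near 1 CPM are limited by depth.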
